A study of Mus musculus with 18 samples.

Results

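The claudins were followed in ovarian RNA of F1 mice as 10 genes, Cldn1, Cldn2, Cldn3, Cldn4, Cldn5, Cldn7, Cldn10, Cldn11, Cldn12 and Cldn15, chosen by their symbols from the 30172 gene symbols that each library lists. All pups were female, wild-type and C57BL/6J, and none was treated directly. F1-HHcy pups were born to dams with hyperhomocysteinemia (HHcy, a raised homocysteine level) induced by feed containing 3% methionine, and F1-Control pups to dams on normal feed. Per the labels the dams ate the methionine feed from 4 weeks before mating until the end of lactation, whereas the methods of the study give a longer period before mating. Whole ovaries were taken at postnatal day 3 (Pd3), Pd7 or Pd21, and each of the 6 groups of diet and day had 3 libraries, 18 in all. By their labels the Pd21 libraries are batch 2 and all others batch 1, so each comparison of the diets lay within a batch, and age and batch cannot be told apart where Pd21 is set beside another day. Whether a library held 1 pup or several is not given in the sources used here, so the p-values measure the spread between these libraries.

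Claudins are membrane proteins that cross the membrane repeatedly and join into the strands of tight junctions, the belts that seal the space between neighbouring cells. The set of claudins a cell makes decides whether its junctions are tight or let selected ions and water pass, and it differs between epithelia, blood vessels and nerve sheaths. In the female reproductive tract, tight junctions are known from the surface epithelium of the ovary, the lining of the oviduct, the vessel walls and the steroid-making cells around the follicles.

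Levels are in FPKM, the fragments on a gene divided by its length and by the depth of the library, so they can be compared between genes of unequal length. Depth ran from 33630304 to 39398922 fragments on genes. Markers of the ovary's own cells were found in every library, with summed levels of 8 oocyte markers between 529 and 2099 FPKM and of 7 granulosa markers between 101 and 1444 FPKM over all 18. Values of a group are given in the order of replicates 1, 2 and 3, and a number after ± is the SD over n = 3 libraries for a level and the standard error (SE) of the fit for a log2 fold change. Fold changes are F1-HHcy over F1-Control on log2(FPKM + 1), which makes the changes of genes near or below 1 FPKM smaller than their ratios. Tests were made with limma on genes that reached 1 FPKM in 3 or more libraries of a fit, and a gene was called where its unadjusted p was under 0.05 and its log2 change was above 0.58 in size. The adjusted p is limma's p after Benjamini-Hochberg correction over all genes of the same fit. A 2-sided exact permutation test of 3 libraries against 3 cannot go below p = 0.1 and was not run on single genes.

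At Pd3 Cldn1 and Cldn5 were higher in F1-HHcy ovaries, at Pd7 Cldn11 was higher, and at Pd21 Cldn2, Cldn3, Cldn7, Cldn10 and Cldn15 were lower. At Pd3, 9 members were tested and 2 were called higher, on a day when 9.74% of all tested genes were called (5.001% higher). At Pd7, 8 members were tested and 1 was called higher, where 16.4% of all genes were called (9.06% higher). At Pd21 all 10 were tested and 5 were called lower, where 5.14% of all genes were called (5.06% lower and 0.0824% higher). Of these 5, Cldn2 and Cldn7 had passed the filter through the F1-Control libraries alone, so that they had to differ, and the count of 5 is not read as support. The other 8 members had at least 1 FPKM in all 6 libraries of Pd21, and 3 of those were lower. The study picked several of these claudins for its own display of Pd21 genes from the same libraries, which is not independent evidence of their direction.

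The single libraries of the diets were apart for 4 of 10 members at Pd3 (Cldn1, Cldn2, Cldn5 and Cldn12), all higher in F1-HHcy, where 27.9% of all tested genes did not overlap (11.8% higher). They were apart for 5 of 10 members at Pd7, with Cldn11 and Cldn12 higher and Cldn2, Cldn3 and Cldn4 lower, where 38.97% of all tested genes did not overlap (19.5% higher and 19.5% lower). Cldn2 was not tested on these days, so the shares do not cover it. The members apart among the 9 tested at Pd3 were Cldn1, Cldn5 and Cldn12, and among the 8 tested at Pd7 Cldn3, Cldn4, Cldn11 and Cldn12. At Pd21 the libraries were apart for the 5 members called lower, where the share of all tested genes was 10.5% (8.61% lower). Of these 5, Cldn2 and Cldn7 had to be apart, since they passed the filter through the F1-Control libraries alone. In RNA of a whole organ, fewer cells of a type and less RNA per cell cannot be told apart.

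**Figure D1:**
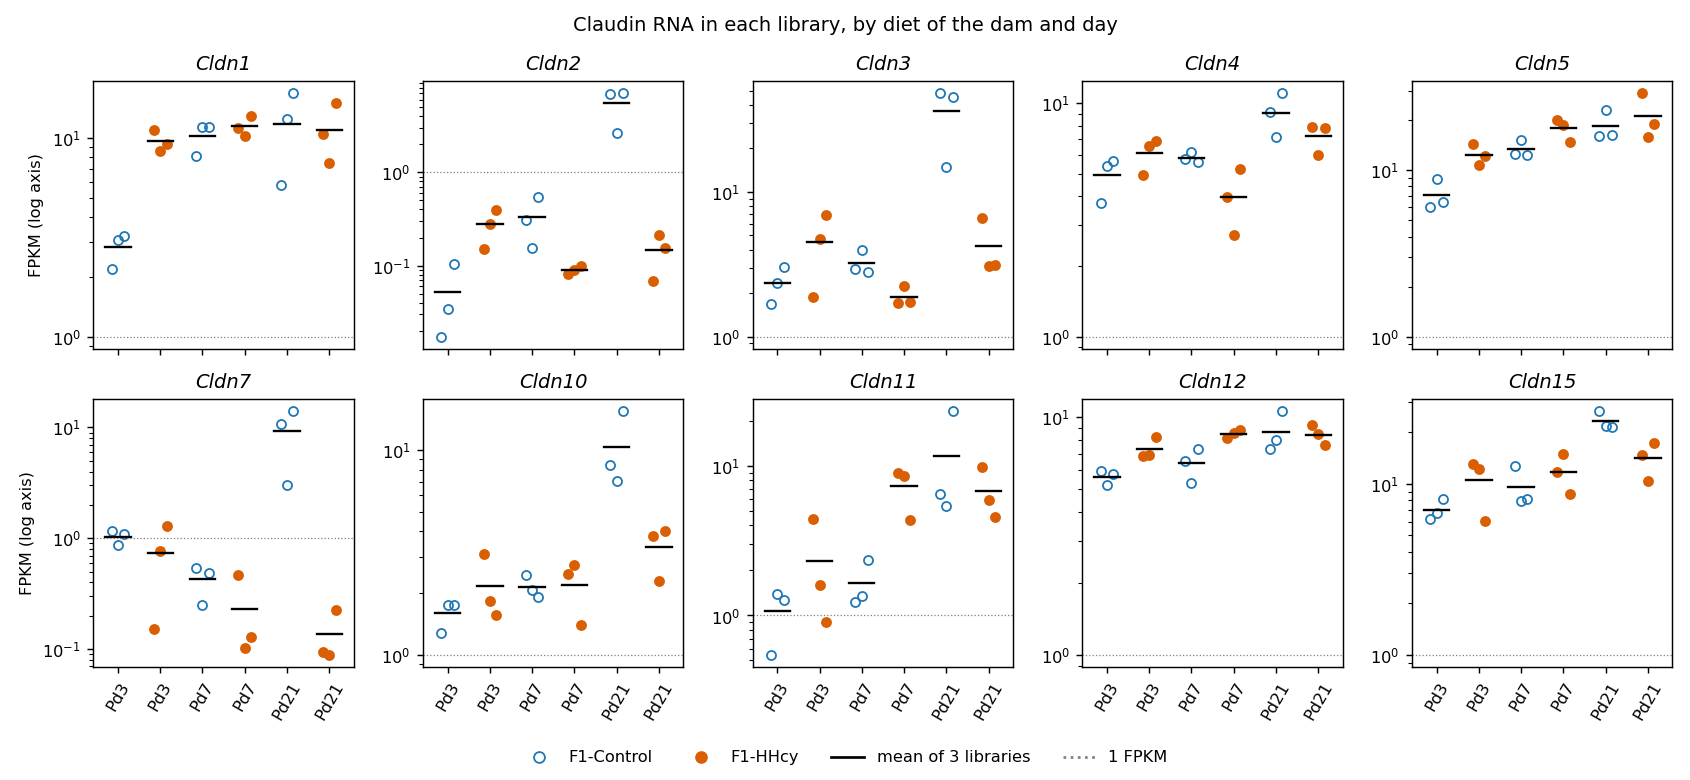
Level of each of the 10 claudins in FPKM on a log axis in every library, by diet of the dam (open circles F1-Control, filled circles F1-HHcy) and day, with a bar at the mean of 3 libraries and a dotted line at 1 FPKM. The F1-Control libraries of Pd21 stand above every other group for Cldn2, Cldn3, Cldn7, Cldn10 and Cldn15, and the F1-Control libraries of Pd3 stand below every other group for Cldn1 and Cldn5.

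Cldn3 and Cldn4 encode sealing claudins of simple epithelia that also serve as receptors of a clostridial enterotoxin. In the RefSeq annotation of GRCm38.p6 they are neighbours on chromosome 5, Cldn4 on the minus strand at chr5:134945123-134946934 and Cldn3 on the plus strand at chr5:134986214-134987476, with 39279 bases and no annotated gene between them. Cldn7 (chr11:69964779-69967886) encodes a claudin found along the sides and base of epithelial cells as well as in their junctions. The 250 bases before the RefSeq start of each gene are shown for these claudins, since Cldn3 and Cldn7 moved together at Pd21 while Cldn4, the neighbour of Cldn3, was not called. Capitals mark the letters of GGGCGG (the GC box read by Sp1), CAGGTG (the E-box read by Snail factors) and TGANTCA (the AP-1 site), each searched on both strands, and 2 windows are given for Cldn7, which has 2 annotated starts.
Cldn3, chr5:134985964-134986213, plus strand: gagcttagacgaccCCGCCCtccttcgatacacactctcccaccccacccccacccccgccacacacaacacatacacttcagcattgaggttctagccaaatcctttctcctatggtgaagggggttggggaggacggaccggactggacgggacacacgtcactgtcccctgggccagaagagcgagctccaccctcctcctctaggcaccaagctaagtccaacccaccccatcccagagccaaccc
Cldn4, chr5:134946935-134947184, minus strand: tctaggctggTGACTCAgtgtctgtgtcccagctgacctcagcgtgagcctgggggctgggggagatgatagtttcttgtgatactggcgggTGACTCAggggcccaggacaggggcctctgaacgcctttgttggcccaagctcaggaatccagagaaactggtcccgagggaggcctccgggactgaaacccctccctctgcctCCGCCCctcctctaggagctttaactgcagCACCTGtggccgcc
Cldn7 first start, chr11:69964529-69964778, plus strand: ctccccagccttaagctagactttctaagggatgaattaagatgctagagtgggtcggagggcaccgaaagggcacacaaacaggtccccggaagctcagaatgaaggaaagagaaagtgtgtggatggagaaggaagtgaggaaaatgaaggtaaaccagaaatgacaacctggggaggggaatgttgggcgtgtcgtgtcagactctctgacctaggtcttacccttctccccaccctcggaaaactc
Cldn7 second start, chr11:69965171-69965420, plus strand: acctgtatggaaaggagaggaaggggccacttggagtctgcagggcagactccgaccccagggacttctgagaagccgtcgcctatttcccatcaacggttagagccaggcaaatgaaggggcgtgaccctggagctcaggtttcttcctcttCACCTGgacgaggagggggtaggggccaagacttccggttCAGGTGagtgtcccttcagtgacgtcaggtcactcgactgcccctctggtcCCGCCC
The Cldn3 window holds 1 GC box, which begins 236 bases before the start. The Cldn4 window holds a GC box at 44 bases, an E-box at 14 bases and AP-1 letters at 240 and 158 bases before the start. The window of the second Cldn7 start holds a GC box at 6 bases and E-boxes at 97 and 57 bases, and these letters are not in the window of its first start. Of 32851 windows of this length over all RefSeq starts, 32.7% hold the GC box, 17.2% this E-box and 6.75% the AP-1 letters, and a match is a description of the sequence alone.

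Cldn3 was low in young ovaries of both diets. At Pd3 its level was 1.69, 2.36 and 3.02 FPKM in F1-Control and 1.88, 4.70 and 6.91 FPKM in F1-HHcy libraries. The Pd7 values were 2.95, 3.99 and 2.79 FPKM in F1-Control and 1.69, 2.24 and 1.73 FPKM in F1-HHcy libraries. The Pd21 values were 48.1, 14.9 and 45.5 FPKM in F1-Control and 6.57, 3.08 and 3.13 FPKM in F1-HHcy libraries. The diets overlapped at Pd3, and at Pd7 and Pd21 every F1-HHcy library was below every F1-Control library. At Pd21 the log2 fold change was −2.72 ± 0.44 (adjusted p = 0.0160), a mean 8.49-fold lower on the plain FPKM scale. It was called without each of the 6 libraries in turn (−3.25 to −2.43), although its adjusted p was 0.286 without F1-Control replicate 1. At Pd7 the log2 fold change of −0.55 ± 0.17 was just short of the size needed for a call (adjusted p = 0.0612). Single libraries decided this, because Cldn3 was called without F1-Control replicate 1 (−0.60), F1-Control replicate 3 (−0.63) or F1-HHcy replicate 2 (−0.63). At Pd3 the difference was 0.61 ± 0.36 (adjusted p = 0.348) and became a call without F1-HHcy replicate 1 (1.02).

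Cldn4 was at a few FPKM in most libraries, from 2.72 to 11.04 FPKM over all 18. Its level was 3.73, 5.39 and 5.66 FPKM in F1-Control and 4.95, 6.57 and 6.90 FPKM in F1-HHcy libraries at Pd3. At Pd7 its level was 5.75, 6.20 and 5.58 FPKM in F1-Control and 3.95, 2.72 and 5.23 FPKM in F1-HHcy libraries. At Pd21 its level was 9.16, 7.15 and 11.04 FPKM in F1-Control and 7.94, 5.98 and 7.83 FPKM in F1-HHcy libraries. The diets were apart at Pd7 alone, with F1-HHcy lower. Its log2 fold change there was −0.49 ± 0.19 (adjusted p = 0.120), which was no call, and it was a call without F1-HHcy replicate 3 (−0.67). At Pd21, where its neighbour Cldn3 was lower, the difference of Cldn4 was −0.28 ± 0.19 (unadjusted p = 0.175).

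Cldn7 was near or below 1 FPKM in 15 libraries and well above it in the other 3, the F1-Control libraries of Pd21. At Pd3 it was 1.153, 0.864 and 1.10 FPKM in F1-Control and 0.152, 0.768 and 1.298 FPKM in F1-HHcy libraries. In Pd7 ovaries it was 0.540, 0.253 and 0.489 FPKM in F1-Control and 0.464, 0.102 and 0.130 FPKM in F1-HHcy libraries. In Pd21 ovaries it was 10.7, 3.01 and 14.0 FPKM in F1-Control and 0.0954, 0.0893 and 0.227 FPKM in F1-HHcy libraries. The diets overlapped at Pd3 and Pd7 and were far apart at Pd21. The Pd21 values rest on 608, 166 and 794 fragments in F1-Control and on 5, 5 and 13 fragments in F1-HHcy libraries. The fitted log2 fold change was −2.97 ± 0.43 (adjusted p = 0.0110), and the ratio of the mean FPKM was larger, 67.4-fold lower in F1-HHcy, because 1 is added to each value before the log. Cldn7 passed the filter at Pd21 through the F1-Control libraries alone, so neither its call nor its p there is read as support. At Pd3 the difference was −0.28 ± 0.25 (adjusted p = 0.550), and at Pd7 the gene was below the filter.

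Cldn2, Cldn10 and Cldn15 encode claudins that form channels through the junction. The channel of Cldn2 lets cations and water pass, that of Cldn15 lets cations pass, and Cldn10 gives rise to isoforms for anions or for cations, which the gene-level values do not separate. Cldn2 is on the X chromosome (chrX:139800808-139811386), and its promoter window is shown because it is the only one of the members' 14 windows with the TATAAA letters of the TATA box, which are in capitals.
Cldn2, chrX:139800558-139800807, plus strand: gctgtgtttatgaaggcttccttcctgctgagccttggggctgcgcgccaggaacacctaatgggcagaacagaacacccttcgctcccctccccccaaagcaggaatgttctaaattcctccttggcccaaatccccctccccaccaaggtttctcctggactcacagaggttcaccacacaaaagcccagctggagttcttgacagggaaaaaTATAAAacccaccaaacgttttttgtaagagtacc
The TATAAA letters begin 35 bases before the RefSeq start, and 12.4% of all 32851 windows hold them on either strand. The GC box, the E-box and the AP-1 letters are not in this window.

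Cldn2 was below 1 FPKM in 5 of the 6 groups. Its level at Pd3 was 0.0173, 0.0341 and 0.104 FPKM in F1-Control and 0.152, 0.281 and 0.399 FPKM in F1-HHcy libraries. At Pd7 it was 0.308, 0.155 and 0.543 FPKM in F1-Control and 0.0806, 0.0908 and 0.0989 FPKM in F1-HHcy libraries. At Pd21 it was 6.93, 2.62 and 7.04 FPKM in F1-Control and 0.0678, 0.214 and 0.155 FPKM in F1-HHcy libraries. The diets did not overlap on any day, with F1-HHcy higher at Pd3 and lower at Pd7 and Pd21. The Pd3 and Pd7 values rest on 2 to 65 fragments a library and were below the filter, so the diets were not tested there. The Pd21 values rest on 883, 326 and 901 fragments in F1-Control and 8, 27 and 20 fragments in F1-HHcy libraries. On the log2 scale the fold change at Pd21 was −2.42 ± 0.31 (adjusted p = 0.00656), with a mean 38.0-fold lower on the plain FPKM scale. Cldn2 passed the filter at Pd21 through the F1-Control libraries alone, so neither its call nor its p there is read as support.

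Cldn10 (chr14:118787871-118874525) was at a few FPKM in most groups. At Pd3 it was 1.28, 1.76 and 1.75 FPKM in F1-Control and 3.09, 1.83 and 1.56 FPKM in F1-HHcy libraries. The Pd7 values were 2.46, 2.07 and 1.91 FPKM in F1-Control and 2.47, 2.73 and 1.40 FPKM in F1-HHcy libraries. The Pd21 values were 8.47, 7.08 and 15.4 FPKM in F1-Control and 3.80, 2.28 and 4.02 FPKM in F1-HHcy libraries. The diets overlapped at Pd3 and Pd7, and at Pd21 all F1-HHcy libraries were below all F1-Control libraries. The log2 fold change at Pd21 was −1.33 ± 0.29, a call by the unadjusted p with an adjusted p of 0.0655.

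Cldn15 (chr5:136967869-136975845) was the most abundant of the channel claudins. At Pd3 it was 6.24, 6.78 and 8.15 FPKM in F1-Control and 13.1, 12.2 and 6.10 FPKM in F1-HHcy libraries. At Pd7 its level was 12.8, 7.98 and 8.17 FPKM in F1-Control and 11.7, 14.9 and 8.75 FPKM in F1-HHcy libraries. At Pd21 its level was 26.6, 21.8 and 21.6 FPKM in F1-Control and 14.7, 10.4 and 17.3 FPKM in F1-HHcy libraries. The diets overlapped at Pd3 and Pd7 and were apart at Pd21. Its log2 fold change at Pd21 was −0.70 ± 0.19 (adjusted p = 0.184), and it was no longer a call without F1-HHcy replicate 2 (−0.51). At Pd3 the difference of 0.45 ± 0.26 (adjusted p = 0.346) became a call without F1-HHcy replicate 3 (0.77), the library that lay below all 3 controls.

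Cldn1 (chr16:26356645-26371839), a sealing claudin that skin needs to hold water, was the member with the clearest difference at Pd3. Its level there was 2.18, 3.05 and 3.23 FPKM in F1-Control and 11.04, 8.62 and 9.32 FPKM in F1-HHcy libraries. In Pd7 ovaries it was 8.11, 11.4 and 11.4 FPKM in F1-Control and 11.2, 10.3 and 12.96 FPKM in F1-HHcy libraries. In Pd21 ovaries it was 5.82, 12.6 and 16.9 FPKM in F1-Control and 10.5, 7.46 and 15.1 FPKM in F1-HHcy libraries. The diets were apart at Pd3 and overlapped at Pd7 and Pd21. On the log2 scale the fold change was 1.48 ± 0.16 at Pd3 (adjusted p = 0.0142), a mean 3.42-fold higher on the plain FPKM scale, and 0.16 ± 0.17 at Pd7 (adjusted p = 0.554). It was called at Pd3 without each of the 6 libraries in turn, with a range of 1.357 to 1.563. At Pd21 the difference was −0.03 ± 0.36 and was above 0 when the libraries were rescaled by median ratios (0.03).

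Cldn5 (chr16:18776847-18778262) encodes the claudin of vessel walls, known for sealing the endothelium of the blood-brain barrier. At Pd3 it was 6.00, 8.92 and 6.44 FPKM in F1-Control and 14.3, 10.7 and 12.3 FPKM in F1-HHcy libraries. At Pd7 it was 12.5, 15.2 and 12.4 FPKM in F1-Control and 20.2, 18.7 and 14.8 FPKM in F1-HHcy libraries. At Pd21 it was 16.1, 23.0 and 16.3 FPKM in F1-Control and 29.1, 15.8 and 18.9 FPKM in F1-HHcy libraries. The diets were apart at Pd3 and overlapped on the later days. The log2 fold change was 0.73 ± 0.17 at Pd3 (adjusted p = 0.0630), 0.39 ± 0.16 at Pd7 (adjusted p = 0.132) and 0.17 ± 0.24 at Pd21. Beside the Pd3 difference, 4 of 8 endothelial markers were called higher and none lower, where 5.001% of all tested genes were called higher. None of the 8 had an adjusted p under 0.05. The markers had a median log2 fold change of 0.60, against −0.03 over all tested genes. Their summed level was 50.1 to 70.1 FPKM in F1-Control and 83.1 to 125 FPKM in F1-HHcy libraries, and none of them was at 0 in either group. Their part in the Cldn5 difference was not tested.

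Cldn11 (chr3:31149920-31164326) encodes the claudin of myelin and of the barrier between Sertoli cells of the testis. At Pd3 it was 0.546, 1.40 and 1.26 FPKM in F1-Control and 4.41, 1.59 and 0.899 FPKM in F1-HHcy libraries. The Pd7 values were 1.23, 1.34 and 2.35 FPKM in F1-Control and 9.004, 8.51 and 4.35 FPKM in F1-HHcy libraries. The Pd21 values were 6.52, 5.36 and 23.2 FPKM in F1-Control and 9.82, 5.89 and 4.58 FPKM in F1-HHcy libraries. The diets were apart at Pd7, with every F1-HHcy library higher, and overlapped on the other days. Its log2 fold change at Pd7 was 1.62 ± 0.26 (adjusted p = 0.00658), a mean 4.44-fold higher on the plain FPKM scale, and it was called without each of the 6 libraries in turn (1.46 to 1.91). At Pd3 the difference was 0.55 ± 0.38 (adjusted p = 0.426), with a call without F1-HHcy replicate 3 (0.88). At Pd21 the difference was −0.49 ± 0.48 and turned to 0.11 without F1-Control replicate 3, the library at 23.2 FPKM. Beside the Pd7 difference, 6 of 6 theca markers were called higher, where 9.06% of all tested genes were. Of the 6, 1 (Insl3) passed the filter through the F1-HHcy libraries alone. The lowest F1-Control libraries of Cyp17a1, Lhcgr and Cyp11a1 were at 0.599, 0.202 and 0.813 FPKM, so these genes also needed F1-HHcy libraries to pass. The count of 6 is therefore not read as support. Star and Hsd3b1 were above 1 FPKM in every F1-Control library and were both called higher. The summed level of the 6 was 216 to 449 FPKM in F1-Control and 1136 to 1195 FPKM in F1-HHcy libraries. The part of these markers in the Cldn11 result was not tested.

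Cldn12 (chr5:5505015-5514976), a claudin linked to calcium passage in the gut, varied least of the 10. At Pd3 it was 5.91, 5.21 and 5.75 FPKM in F1-Control and 6.85, 6.95 and 8.24 FPKM in F1-HHcy libraries. At Pd7 its level was 6.55, 5.31 and 7.37 FPKM in F1-Control and 8.14, 8.54 and 8.81 FPKM in F1-HHcy libraries. In Pd21 ovaries it was 7.35, 8.01 and 10.6 FPKM in F1-Control and 9.24, 8.50 and 7.61 FPKM in F1-HHcy libraries. The F1-HHcy libraries were above all F1-Control libraries at Pd3 and Pd7 and overlapped with them at Pd21. The differences of 0.33 ± 0.12 at Pd3 (adjusted p = 0.171) and 0.37 ± 0.15 at Pd7 (adjusted p = 0.136) had unadjusted p-values of 0.0281 and 0.0377 and were below the size needed for a call. At Pd21 the difference was −0.02 ± 0.17 and lay at 0.03 with median-ratio scaling.

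**Figure D2:**
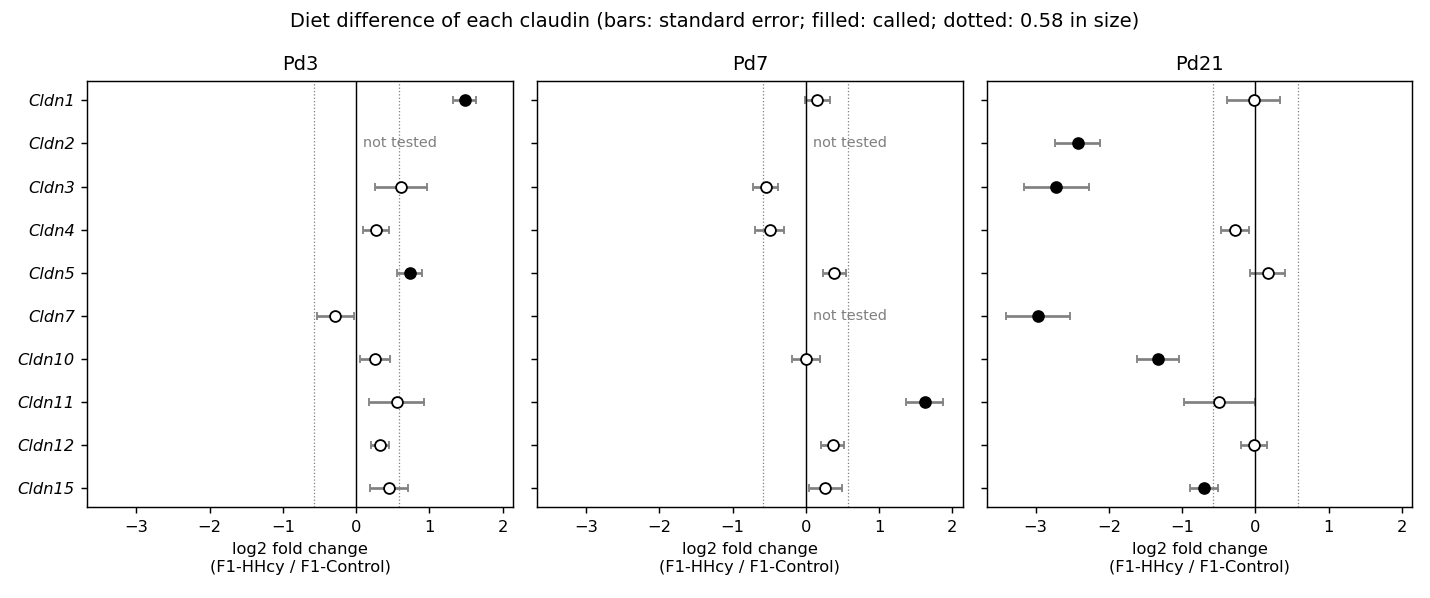
Log2 fold change of each claudin between the diets (F1-HHcy over F1-Control, on log2(FPKM + 1)) at Pd3, Pd7 and Pd21, with bars of 1 standard error, filled points for calls and dotted lines at 0.58 in size. Calls lie to the right at Pd3 (Cldn1, Cldn5) and Pd7 (Cldn11) and to the left at Pd21 (Cldn2, Cldn3, Cldn7, Cldn10, Cldn15), and Cldn2 at Pd3 and Cldn2 and Cldn7 at Pd7 were not tested.

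Between Pd3 and Pd7, which lie within 1 batch, 2 claudins changed in control ovaries and 1 in F1-HHcy ovaries. In F1-Control ovaries Cldn1 rose by 1.56 ± 0.28 (adjusted p = 0.00325) and Cldn5 by 0.84 ± 0.21 (adjusted p = 0.0188) on the log2 scale, 2 of 10 members called where 13.7% of all genes were called (6.76% higher). In F1-HHcy ovaries the same steps were 0.23 ± 0.28 for Cldn1 (adjusted p = 0.669) and 0.49 ± 0.21 for Cldn5 (adjusted p = 0.164). Cldn11 rose there by 1.42 ± 0.45 by the unadjusted p (adjusted p = 0.0713), 1 of 10 members where 11.8% of all genes were called (5.76% higher). Without F1-HHcy replicate 1 of Pd3 the calls in F1-HHcy numbered 4, adding Cldn3 (−1.22), Cldn4 (−0.67) and Cldn5 (0.59), and without replicate 3 of Pd7 they numbered 3, adding Cldn4 (−0.72) and Cldn5 (0.62). These changes share their libraries with the comparisons of the diets and are no separate evidence.

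The change of the diet difference between days was tested in 1 model of all 18 libraries. From Pd3 to Pd7 the diet difference fell for Cldn1 by 1.33 ± 0.40 (adjusted p = 0.162) and for Cldn4 by 0.77 ± 0.28 (adjusted p = 0.257), 2 of 10 members by the unadjusted p, where 10.03% of all genes were called (5.28% lower). By the adjusted p of limma none of the 10 passed, where 0.411% of all genes did. The Cldn4 call was lost without F1-HHcy replicate 2 of Pd7 (−0.58, with an unadjusted p of 0.0510), and Cldn3 and Cldn11 were added without F1-HHcy replicate 1 of Pd3 (−1.57 and 1.49). Without F1-Control replicate 3 of Pd3, Cldn3 was added (−1.30). From Pd7 to Pd21 the diet difference was called lower for 6 of 10 members, where 15.3% of all genes were called (9.72% lower). The 6 were Cldn2 (−2.14 ± 0.32), Cldn3 (−2.17 ± 0.55), Cldn7 (−2.75 ± 0.49), Cldn10 (−1.33 ± 0.36), Cldn11 (−2.11 ± 0.64) and Cldn15 (−0.97 ± 0.36). For Cldn2, Cldn3, Cldn7 and Cldn10 the adjusted p was under 0.05 as well (0.000621, 0.0363, 0.00271 and 0.0483), where 3.87% of all genes passed that threshold. Cldn2 reached 1 FPKM in the F1-Control libraries of Pd21 alone and so passed the filter of this model through its high group, and neither its call nor its p is read as support. Cldn11 differs from the other 5 in its Pd7 side, since its F1-HHcy level was higher at Pd7 and its diets overlapped at Pd21. Age and batch cannot be told apart in this comparison.

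Summed over the 10 members, claudin RNA was 33.7 ± 4.27 FPKM in F1-Control and 56.0 ± 3.39 FPKM in F1-HHcy libraries at Pd3. At Pd7 the sums were 53.4 ± 0.448 FPKM in F1-Control and 65.3 ± 6.17 FPKM in F1-HHcy libraries. At Pd21 they were 144 ± 38.0 FPKM in F1-Control and 76.8 ± 16.2 FPKM in F1-HHcy libraries. The single libraries of the diets were apart on all 3 days, with F1-HHcy higher at Pd3 and Pd7 and lower at Pd21 (59.7 to 91.9 against 105.5 to 181.5 FPKM). The makeup of the sum changed too. Cldn3 made up 24.1% ± 9.48 of the claudin sum in F1-Control and 5.43% ± 1.60 in F1-HHcy libraries at Pd21. In F1-Control libraries of Pd3, Cldn5 made up 21.2% ± 3.66 and Cldn15 21.0% ± 1.81. At Pd3 Cldn1 made up 8.33% ± 0.662 in F1-Control and 17.2% ± 1.26 in F1-HHcy libraries, and at Pd7 Cldn11 made up 3.08% ± 1.18 and 10.97% ± 3.04.

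**Figure D3:**
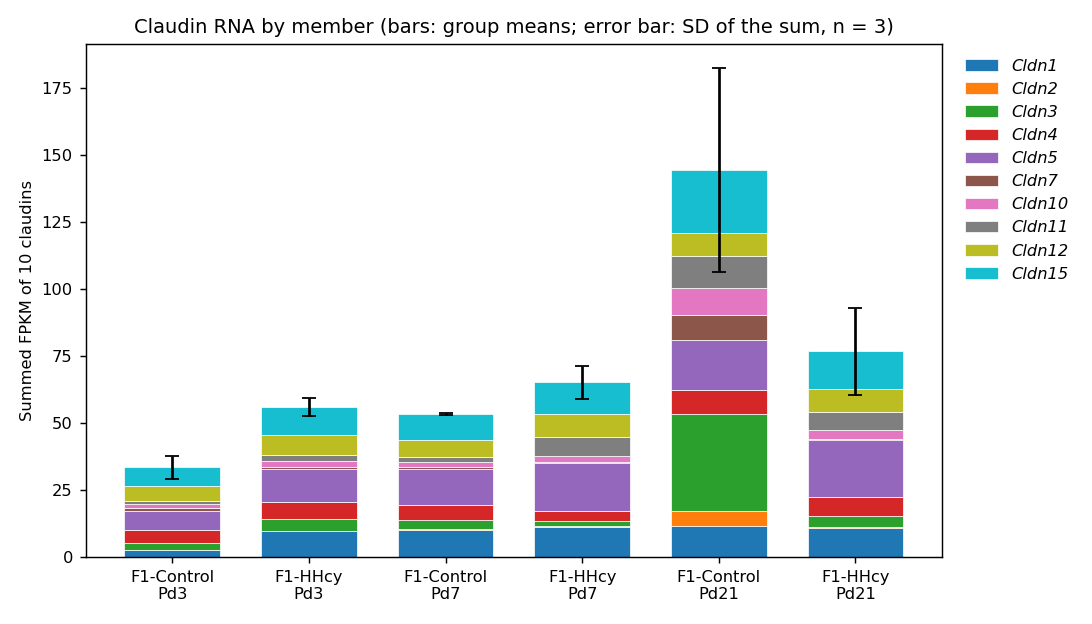
Summed FPKM of the 10 claudins in the 6 groups, stacked by member from group means, with error bars of 1 SD of the sum over 3 libraries. The F1-Control bar of Pd21 reaches 144 FPKM against 76.8 FPKM in F1-HHcy, and the green Cldn3 layer is the one that differs most in height.

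Across the 18 libraries, on log2(FPKM + 1), Pearson's r was 0.946 between Cldn2 and Cldn3, 0.939 between Cldn2 and Cldn7, 0.900 between Cldn3 and Cldn7 and 0.875 between Cldn10 and Cldn15. These correlations are descriptions, since the points share their diet, day and batch. The r between Cldn3 and its chromosomal neighbour Cldn4 was 0.787. Cldn5 and Cldn7 had an r of −0.02.

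The genes whose levels followed each claudin most closely, among those with a mean of at least 1 FPKM over the 18 libraries, were of different kinds. For Cldn2 they were Rsph4a (r = 0.988), Tctex1d4 (0.985) and Ccdc40 (0.983), and for Cldn3 they were Zmynd10 (0.962), Ppp1r1b (0.960) and Cfap126 (0.955). Rsph4a, Ccdc40, Zmynd10 and Cfap126 are known as genes of motile cilia. For Cldn7 they were Slc39a4 (0.982), a zinc importer, Fndc7 (0.977) and Pih1d2 (0.967). For Cldn10 they were Dbndd2 (0.939), Apobec1 (0.927) and Ces1d (0.925), and for Cldn15 Crip2 (0.921), Fbxo16 (0.916) and Apobec1 (0.902). Apobec1, an RNA-editing enzyme, is on both of these lists. For Cldn11 they were Oxtr (0.953), the oxytocin receptor, Plin1 (0.946), a coat protein of lipid droplets, and Mrap (0.941), a partner of the receptor for adrenocorticotropic hormone. For Cldn5 they were Slc9a3r2 (0.924), Fxyd1 (0.917) and Grasp (0.916), for Cldn1 Mpzl1 (0.926), Mr1 (0.905) and Pknox2 (0.886), for Cldn4 Abhd5 (0.876), Slc25a1 (0.866) and Entpd5 (0.860), and for Cldn12 Tmem164 (0.919), Dock5 (0.911) and Spock2 (0.911). The r of Cldn4 with its closest gene was below that of every other member. Each r is over the same 18 libraries in 6 groups and has no test.

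At Pd21, where 5.06% of all tested genes were called lower, the markers of other cell types moved with the claudins that were lower. Of 5 oviduct secretory markers, 4 were tested and 4 were called lower, but 2 of these had passed the filter through the F1-Control libraries alone, so these 2 calls are not read as support. Ovgp1, with its lowest F1-HHcy library at 0.370 FPKM, also needed F1-Control libraries to pass. The summed level of the 5 was 54.9 to 474 FPKM in F1-Control and 3.53 to 8.15 FPKM in F1-HHcy libraries. Ovgp1, the oviduct glycoprotein, was at 206 ± 164 FPKM in F1-Control and 1.19 ± 0.867 FPKM in F1-HHcy libraries, and Wfdc2, a secreted protein of genital tract epithelia, at 40.7 ± 41.1 and 2.84 ± 2.02 FPKM. Of 12 markers of multiciliated cells, 10 were tested and 9 were called lower, 4 of them likewise through the F1-Control libraries alone. Tekt1 and Ccdc39, with their lowest F1-HHcy libraries at 0.536 and 0.715 FPKM, also needed F1-Control libraries to pass. The count of 9 is therefore not read as support. Of the markers above 1 FPKM in every F1-HHcy library, Rsph1, Cfap126 and Tppp3 were called lower and Ccno was not. The sums of the 12 were 202 to 530 FPKM in F1-Control and 90.6 to 123 FPKM in F1-HHcy libraries. Tppp3 of that list was at 98.1 ± 53.4 and 9.06 ± 2.25 FPKM, whereas Ccno, its most abundant member in F1-HHcy ovaries, was at 81.3 ± 14.9 and 89.8 ± 13.1 FPKM. No marker of either list was at 0 in all libraries of a diet, and 3 oviduct and 6 multiciliated markers were under 1 FPKM in every F1-HHcy library. F1-Control replicate 2, the lowest control library for Cldn2, Cldn3 and Cldn7, was also the lowest for both sums. Without this library the log2 fold change of Cldn3 was −3.25. The part of these cell types in the claudin result was not tested.

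**Figure D4:**
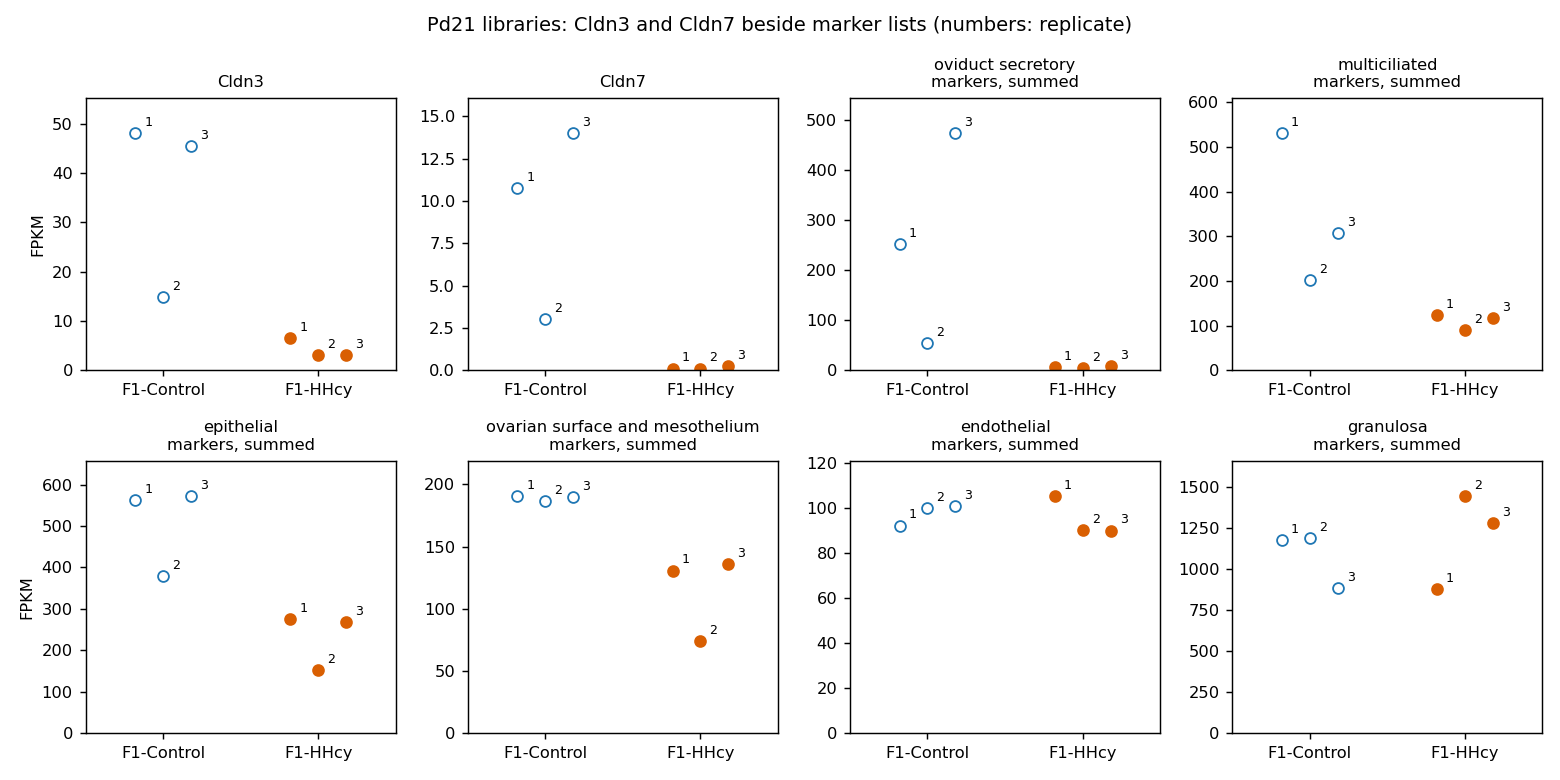
Levels in the 6 libraries of Pd21 in FPKM (open circles F1-Control, filled circles F1-HHcy, numbers are replicates) of Cldn3, Cldn7 and the summed markers of 6 cell types, each axis starting at 0. F1-Control replicate 2 is the lowest control library for Cldn3, Cldn7 and the oviduct secretory, multiciliated and epithelial sums, and the endothelial and granulosa sums of the diets overlap.

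General epithelial markers were called lower at Pd21 as well, 9 of 11 tested, where 5.06% of all tested genes were. Of the 11, 2 had an adjusted p under 0.05. Their sums were 378 to 572 FPKM in F1-Control and 152 to 276 FPKM in F1-HHcy libraries. Krt18 and Krt19, keratins of simple epithelia, were at 79.9 ± 24.3 and 127 ± 25.7 FPKM in F1-Control and at 29.2 ± 9.06 and 50.7 ± 23.7 FPKM in F1-HHcy libraries. Of 7 markers of the ovarian surface and mesothelium, 4 were lower, with sums of 186 to 191 and 73.7 to 136 FPKM, among them Upk3b (99.4 ± 9.70 and 55.7 ± 16.4 FPKM) and Upk1b (33.0 ± 4.69 and 22.4 ± 7.38 FPKM). No adjusted p of these 7 was under 0.05. None of the endothelial, granulosa, theca, oocyte and erythroid markers tested was called at Pd21, where the endothelial sums were 92.1 to 101 and 89.9 to 105 FPKM. Emcn and Egfl7, both of vessel walls, were at 20.6 ± 2.21 and 20.6 ± 5.11 FPKM in F1-Control and at 20.4 ± 2.12 and 22.8 ± 2.79 FPKM in F1-HHcy libraries of Pd21. At Pd7 the epithelial list had 6 lower and 1 higher of 11 tested, beside 7.35% lower and 9.06% higher among all tested genes. At Pd3 it had 3 lower and none higher of 11, beside 4.74% lower among all tested genes.

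Markers of other cell types are given beside the claudins of Pd3 and Pd7 too, against 5.001% of all tested genes called higher and 4.74% called lower at Pd3, and 9.06% and 7.35% at Pd7. Granulosa markers were called higher in 4 of 5 tested genes at Pd3 and 6 of 7 at Pd7, with Inha, a subunit of inhibin, at 34.6 ± 0.464 in F1-Control and 132 ± 69.6 FPKM in F1-HHcy libraries of Pd3 and Amh, the anti-Müllerian hormone, at 2.08 ± 0.428 and 48.2 ± 46.4 FPKM. Among theca markers, 2 were tested at Pd3 and none was called, and at Pd7 Cyp17a1, the enzyme of androgen synthesis, was at 3.49 ± 4.799 and 136 ± 62.2 FPKM and Hsd3b1, an enzyme of progesterone synthesis, at 301 ± 110 and 947 ± 57.2 FPKM. Oocyte markers had 5 of 8 higher at Pd3, and 2 higher and 5 lower at Pd7. Zp2 and Zp3, proteins of the egg coat, were at 250 ± 63.1 and 170 ± 43.6 FPKM in F1-Control and 553 ± 153 and 377 ± 93.2 FPKM in F1-HHcy libraries of Pd3. Erythroid markers were lower in 4 of 4 tested genes at Pd3 and 3 of 3 at Pd7, with Hba-a1 at 1917 ± 1079 and 264 ± 62.1 FPKM and Hbb-bs at 3749 ± 1865 and 514 ± 105 FPKM at Pd3. Multiciliated markers had no call at Pd3 and 1 higher of 7 tested at Pd7, and endothelial markers 1 higher of 8 at Pd7, so that neither list is read as changed there by its calls. The endothelial sums of Pd7 were apart, 106 to 119 FPKM in F1-Control and 121 to 142 FPKM in F1-HHcy libraries. The median log2 fold change of these endothelial markers was 0.26, against −0.0015 over all tested genes. Oviduct secretory markers had no call at Pd3 and 1 higher and 1 lower of 3 at Pd7, and surface markers had 1 lower of 7 at Pd3 and 2 lower of 7 at Pd7. The part of these lists in the claudin differences was not tested.

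Of the genes whose proteins work with claudins in the junction, 1 of 21 was called at Pd3, 3 of 21 at Pd7 and 1 of 22 at Pd21, where 9.74%, 16.4% and 5.14% of all tested genes were called. Of 25 tight junction partners, among them the scaffolds, the junctional adhesion molecules and the proteins of 3-cell contacts, 21 were tested at Pd3 and Pd7 and 22 at Pd21, and none was called higher on any day. At Pd3 Cgn, which encodes the scaffold protein cingulin, was lower (37.9 ± 6.98 FPKM in F1-Control and 23.9 ± 5.78 FPKM in F1-HHcy, log2 fold change −0.65, adjusted p = 0.122). At Pd7, 3 of 21 were lower, where 7.35% of all tested genes were, among them Marveld2 and Lsr, whose proteins tricellulin and angulin-1 hold together the points where cells meet in threes. Marveld2 was at 9.25 ± 1.80 and 4.27 ± 0.889 FPKM (log2 fold change −0.96, adjusted p = 0.0122) and Lsr at 40.5 ± 7.89 and 19.8 ± 4.57 FPKM (−1.002, adjusted p = 0.0142). At Pd21 Jam3, a junctional adhesion molecule, was lower (26.1 ± 7.93 and 13.2 ± 1.17 FPKM, log2 fold change −0.89, adjusted p = 0.117). The median log2 fold change of the tested partners was −0.18, −0.20 and −0.17 at Pd3, Pd7 and Pd21, against −0.03, −0.0015 and −0.01 over all tested genes. Of 22 other claudin symbols, 3, 2 and 3 were tested on these days, with 2 lower at Pd3 (1 of them, Cldn13, tested through the F1-Control libraries alone), 1 higher at Pd7 and 1 lower at Pd21. Cldn13, the most abundant of them by its mean over the 18 libraries, was at 18.6 ± 10.8 FPKM in F1-Control and 0.172 ± 0.297 FPKM in F1-HHcy libraries of Pd3. It was at 0 in every library of Pd21, where Cldn25 was at 4.74 ± 0.737 FPKM in F1-Control and 6.64 ± 0.717 FPKM in F1-HHcy libraries.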

How the data were processed

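Ovarian poly-A RNA of 18 F1 mouse samples was sequenced as stranded libraries by a service company. The submitters' processing notes name FastQC 0.11.9, Trimmomatic 0.39, STAR 2.7.9a, featureCounts 2.0.1, DESeq2 1.36.0 and the build GRCm38 (mm10), without settings. The deposited values, 1 per gene symbol and library, carry no unit name and were read as FPKM, because a single length per gene gave whole fragments (within 0.02) in all libraries for 27294 of 27294 genes detected in 3 or more. Such depth puts 1 fragment on a gene of 1 kilobase at 0.0254 to 0.0297 FPKM.

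Groups were taken from the sample titles, and no library was left out. Per day, log2(FPKM + 1) was fitted with limma 3.58.1 (variance trend) in R 4.3.3 on genes reaching 1 FPKM in 3 or more of the 6 libraries. The steps between days and the changes of the diet difference came from 1 model of the 6 groups. The call rule, an unadjusted p under 0.05 and a log2 change above 0.58 in size, is that of the study's volcano plots. The fits were tested on simulated data. For the diet fits the altered genes there were at 1 FPKM or more in all 6 libraries before the change. The simulation therefore does not cover genes near or below 1 FPKM. Alternatives were a pseudocount of 0.1, no filter, median-ratio scaling, limma-voom on the recovered fragments, the replicate number as a block, the adjusted p, all 18 libraries in 1 fit, and each library left out in turn. Leaving out libraries with no filter was added after seeing the data.

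The members and the lists (25 tight junction partners, 22 other claudins and 9 cell type lists from general knowledge) were chosen with earlier results of these data known. The text names all members, the 3 genes most like each by Pearson's r, on each day at most 2 called partners per direction with the smallest p, the 2 most abundant genes of each cell type list and the most abundant other claudin. Windows of 250 bases before RefSeq starts (GRCm38.p6) covered all 10 members. Same-numbered libraries of the diets did not deviate together more than others (r of their deviations from the group means from −0.31 to 0.0924). For libraries of different numbers r ran from −0.17 to 0.29. With 3 libraries per group these values cannot show whether the numbers pair the libraries, and the main fits took them as unpaired.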

Additional observations from a re-analysis of the deposited data

Results flagged for a closer look

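The change of the diet difference from Pd7 to Pd21 was tested in limma's model of all 18 libraries. It had an adjusted p under 0.05 for 4 of 10 claudins, among them Cldn2, which is set aside below. Of all genes, 3.87% passed that threshold. On the log2 scale the change was −2.14 for Cldn2 (adjusted p = 0.000621), −2.17 for Cldn3 (adjusted p = 0.0363), −2.75 for Cldn7 (adjusted p = 0.00271) and −1.33 for Cldn10 (adjusted p = 0.0483). Cldn2 passed the filter through the F1-Control libraries of Pd21 alone, so its p is not read as support. F1-HHcy libraries of Pd21 were below the F1-Control libraries in 3 of 3 for each of these genes, where 8.61% of all genes tested at Pd21 were. For Cldn2 and Cldn7 this had to be so, since they passed the filter of the Pd21 fit through the F1-Control libraries alone. It is not read as support. Pd7 and Pd21 are in different batches, so age and batch cannot be told apart.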

How the results depend on the processing

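At Pd21 the count of 5 called claudins was again 5 with a pseudocount of 0.1, no filter, median-ratio scaling, limma-voom, the replicate block and all 18 libraries in 1 fit, and 3 by the adjusted p. The 5 of the main fit include Cldn2 and Cldn7, which passed the filter through the F1-Control libraries alone, and the count is not read as support. Those 3 by the adjusted p were Cldn2, Cldn3 and Cldn7. Leaving out 1 library gave 3 to 5. Each F1-Control library left out gave 3, because Cldn2 and Cldn7 then reached 1 FPKM in too few libraries to be tested, and with no filter those counts were 5. At Pd3 the count of 2 became 1 by the adjusted p and 2 to 4 with 1 library left out, and at Pd7 the count of 1 became 3 with a pseudocount of 0.1, 3 with limma-voom and 1 to 2 with 1 library left out. Between Pd3 and Pd7 in F1-HHcy the count of 1 became 3 with a pseudocount of 0.1, 2 with limma-voom, 0 by the adjusted p (3 at an unadjusted p under 0.05 of any size) and 1 to 4 with 1 library left out. The change of the diet difference from Pd3 to Pd7 became 4 with a pseudocount of 0.1, 0 by the adjusted p and 1 to 4 with 1 library left out, from 2, and that from Pd7 to Pd21, from 6, became 4 by the adjusted p and 5 to 6 with 1 library left out. Each F1-Control library of Pd21 left out gave 5, without Cldn2, which then was not tested. The cause of the other changes was not tested.

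Differences close to 0 turned sign. Cldn10 at Pd7 (0.0029) became −0.011 with a pseudocount of 0.1, −0.013 with median-ratio scaling and −0.024 with limma-voom, and −0.12 to 0.20 with 1 library left out, with −0.012, −0.052 and −0.069 among these values. With median-ratio scaling Cldn1 at Pd21 became 0.027 and Cldn12 at Pd21 became 0.033. With 1 library left out, with or without the filter, the Pd21 ranges were −0.42 to 0.27 for Cldn1 (also 0.074 and 0.20), −0.072 to 0.35 for Cldn5, −0.85 to 0.11 for Cldn11 and −0.12 to 0.12 for Cldn12 (also 0.046). The scalings moved the median of all genes by under 0.1. With the replicate number as a block, the Pd3 count was 3, with Cldn3 added, and no other count changed. Of 315 values with a library left out, 278 kept their direction and side of the threshold, and of 189 others 176 did. Genes below the filter, such as Cldn2 at Pd3 and Pd7 and Cldn7 at Pd7, were not tested there.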
